A study of Homo sapiens with 2 samples.

Results

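The genes described here are 10 members of the BCL-2 family, which decides whether a cell keeps its mitochondria intact or dies by apoptosis: MCL1, BCL2 and BCL2L1, which protect the cell, BCL2L11, BIK, BMF, BID and PMAIP1, which belong to the BH3-only group, and the effectors BAX and BAK1. They are named members of the family, picked with earlier results of these data known, and no value enters the rule. All 10 were measured, out of 19775 genes on the array, by 31 probe sets that name no other gene. Expression was measured in Huh7 cells, a line established from a human hepatocellular carcinoma. One culture was stably transduced by lentivirus with a short hairpin RNA against CD24, a small glycoprotein anchored to the cell surface, and the other with a non-target control hairpin. The sources used here give neither the hairpin sequence nor whether a culture was a pool or a clone. Each culture was measured on 1 Affymetrix array, so each group had 1 array and no difference has a replicate check.

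Pro-survival BCL-2 proteins hold the effectors BAX and BAK in check at the outer mitochondrial membrane. BH3-only proteins are induced or activated by stress and either occupy the groove of the pro-survival proteins or act on the effectors directly. Once free, BAX and BAK form pores that release cytochrome c, which starts the caspase cascade. Mouse hepatocytes are known to depend on MCL1 and on BCL-xL, the main product of BCL2L1, for survival.

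The deposited values are log2 values centred within each probe set, so that the CD24 shRNA value and the control value of a probe set are equal in size and opposite in sign. Levels were therefore not available, and the quantity given throughout is the log2 difference, CD24 shRNA minus control. The SD of a gene is taken over its probe sets. It covers disagreement between probe sets only, and how far cultures of 1 group would differ was not measured. Pooled within the 10523 genes that had several probe sets, this SD was 0.27. For CD24, which the hairpin targets, the difference was negative on each of 6 probe sets, between -1.97 and -0.95. Of the cell type markers looked up, HNF4A and CD68 were not among the measured genes. Among hepatocyte and hepatoma markers 1 of 23 probe sets was placed near the background, below a log2 value of 4. The count was 11 of 28 for stellate cell and fibroblast markers, 5 of 11 for blood cell markers and 3 of 8 for endothelial markers. For all genes 10453 of 41091 probe sets were placed there. This placement reads only the digits of the table and finds part of the dim probe sets. With levels missing, it was the only check of the labelled cell type.

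None of the 10 members was 2-fold apart between the arrays. Of all genes 1.12% passed 2-fold, 0.632% on the higher side and 0.485% on the lower. The lower threshold of 1.5-fold was passed by 2 of 10 members, where 5.01% of all genes passed it. BIK was the only member at least 1.5-fold higher with CD24 shRNA, where 2.63% of all genes passed, and BMF the only one at least 1.5-fold lower, where 2.38% passed. Both encode BH3-only proteins and both were measured by 1 probe set. MCL1 and BCL2L1, each pro-survival, were higher on most of their probe sets by less than 1.5-fold on average, and the effectors and the other BH3-only genes lay within 0.16 of 0 on average. The median of the 10 members was 0.04, against 0 for all genes. Above 0 lay 6 members, with 4 below, where 49.4% of all genes lay above 0. Without probe sets placed below a log2 value of 4, 5 of 10 members lay above 0. Scaling the arrays on 9 hybridisation control probe sets adds 0.08 to every difference, and so to the median of all genes. The SD over these 9 controls was 0.10, larger than the shift. After this scaling 8 of 10 members lay above 0, and the share of all genes above 0 was not counted. On that scaling 1 member was at least 1.5-fold higher and 0 were at least 1.5-fold lower, and over all genes 711 passed 1.5-fold on the higher side and 346 on the lower, against 521 and 470 without it.

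**Figure D1:**
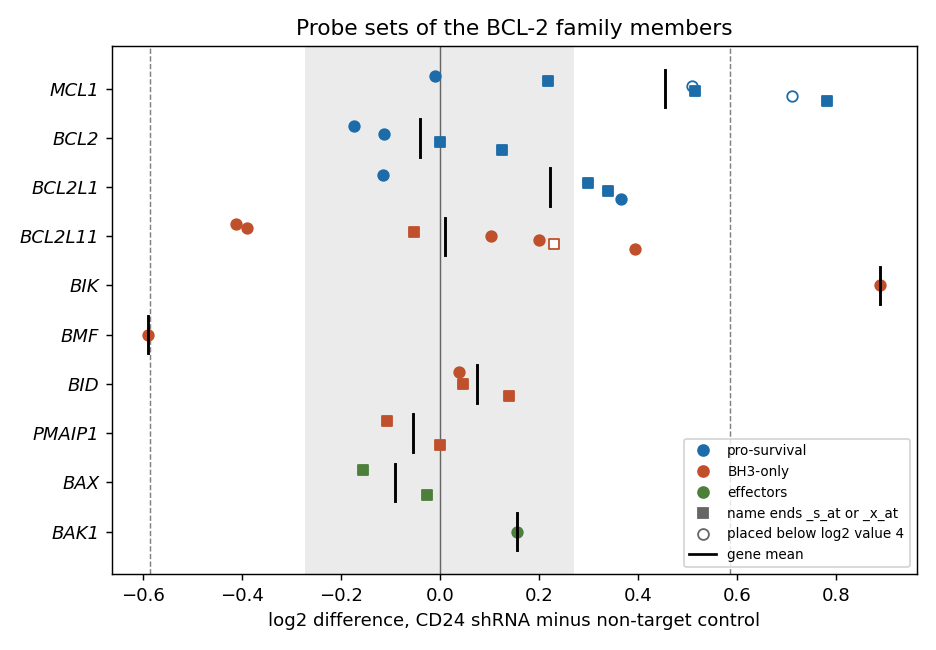
Each point is 1 probe set of a member, placed by its log2 difference, CD24 shRNA minus control, with genes grouped by role from top to bottom. Squares mark probe set names that end in _s_at or _x_at, which can match several transcripts, open symbols those placed below a log2 value of 4, black bars the gene means, the grey band the pooled SD of 0.27 on either side of 0, and dashed lines 1.5-fold. MCL1 has 4 probe sets right of the band, BIK and BMF lie apart on opposite sides, and the BCL2L11 probe sets spread across both sides.

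MCL1 encodes a short-lived pro-survival protein that binds BAK and several BH3-only proteins. Its mean value was 0.23 in the CD24 shRNA array, against -0.23 in the control array, a log2 difference of 0.45 ± 0.30 (SD, 6 probe sets) or 1.37-fold higher. Probe set 200798_x_at showed the largest difference, 0.78, followed by 214056_at at 0.71. Probe sets 200796_s_at and 227175_at nearly coincided, at 0.51 each. The 2 remaining probe sets were lower, with 0.22 for 200797_s_at and -0.01 for 214057_at, so that 5 of 6 lay above 0 and 4 of 6 exceeded the pooled SD. Of all genes, 4.53% had a difference at least this high, and 8.82% had one at least this large in size, in either direction. Among the 2728 genes with 4 or more probe sets, 6.09% had a difference at least this large in size. The digits of the table placed 214056_at and 227175_at below a log2 value of 4 in the dimmer array. The same reading placed 7 of 124 probe sets of genes expected to be abundant there. Without levels, whether it is right for a single probe set cannot be checked. With 214056_at and 227175_at left out the MCL1 difference was 0.38. The other probe sets above 0, 200796_s_at, 200797_s_at and 200798_x_at, have names that end in _s_at or _x_at. Only 214057_at, at -0.01, had neither such a name nor a placement below 4, and the digits did not place it.

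BCL2L1 encodes BCL-xL, a long-lived pro-survival protein, and by alternative splicing the death-promoting BCL-xS. Its mean value was 0.11 in the CD24 shRNA array and -0.11 in the control array, a difference of 0.22 ± 0.23 (SD, 4 probe sets). A group of 3 probe sets agreed closely, with 0.37 for 212312_at, 0.34 for 206665_s_at and 0.30 for 215037_s_at. The fourth, 231228_at, lay on the other side of 0 at -0.12. The fourth probe set thus lay apart from the other 3, but the SD over all 4 was below the pooled SD of 0.27. Which transcripts each probe set detects was not tested. When probe sets whose names end in _s_at or _x_at were left out, 212312_at and 231228_at remained and the difference was 0.13. A difference at least as high as the mean of BCL2L1 was found for 16.2% of all genes.

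BCL2, the gene that named the family, showed no common direction over its probe sets. The mean was -0.02 in the CD24 shRNA array, against 0.02 in the control array, a difference of -0.04 ± 0.13 (SD, 4 probe sets). The probe sets lay at 0.12 for 203684_s_at, 0 for 207005_s_at, -0.11 for 203685_at and -0.17 for 207004_at. Each of these was smaller in size than the pooled SD, and 84.7% of all genes had a difference as large in size as the mean. On the hybridisation control scaling the mean of BCL2 turned to 0.04.

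BIK encodes a BH3-only protein located mainly at the endoplasmic reticulum. It had the largest difference of the 10 members. The value of its probe set, 205780_at, was 0.44 in the CD24 shRNA array and -0.44 in the control array, a difference of 0.89 or 1.85-fold higher. It was 3.30 times the pooled SD between probe sets, which is no measure of the spread between cultures. Of all genes 0.92% had a difference at least this high, and among the 9252 genes with 1 probe set 1.84% had one as large in size. No second probe set on the array was available to check it.

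BMF encodes a BH3-only protein that is tethered to the actin-based myosin V motor through the dynein light chain DYNLL2. It was the only member at least 1.5-fold lower with CD24 shRNA. Its probe set, 226530_at, had -0.29 in the CD24 shRNA array, against 0.29 in the control array, a difference of -0.59, at the edge of the 1.5-fold threshold. Of all genes 2.35% were as low or lower, and 4.96% had a difference as large in size, in either direction. Among the genes with 1 probe set the second share was 5.64%. On the scaling to hybridisation controls BMF lay at -0.51, inside the 1.5-fold threshold. DYNLL2 was higher on all 3 of its probe sets, at 0.35 ± 0.14 (SD), opposite to BMF.

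The promoters of BMF and BCL2L1 are shown because they belong to the member with the largest lower difference and to the member with the largest higher difference among the 8 of 10 members that have an entry in the RefSeq promoter table. MCL1 and BIK have none there. Each sequence is the 250 bases before the annotated start in GRCh38.p14, 5′ to 3′ on the strand of the gene. BMF lies on the minus strand at chr15:40108880-40109129 and BCL2L1 on the minus strand at chr20:31723964-31724213. Capitals mark matches on either strand to the CCAAT box, spelled as its name, to the GC box, which reads GGGCGG, and to the TATA box, searched as TATAAA.
BMF: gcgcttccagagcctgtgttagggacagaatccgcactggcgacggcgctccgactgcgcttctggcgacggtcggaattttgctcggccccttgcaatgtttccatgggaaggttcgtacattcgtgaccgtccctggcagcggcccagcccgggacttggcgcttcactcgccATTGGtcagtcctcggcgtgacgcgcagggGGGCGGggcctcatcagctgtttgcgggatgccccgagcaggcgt
BCL2L1: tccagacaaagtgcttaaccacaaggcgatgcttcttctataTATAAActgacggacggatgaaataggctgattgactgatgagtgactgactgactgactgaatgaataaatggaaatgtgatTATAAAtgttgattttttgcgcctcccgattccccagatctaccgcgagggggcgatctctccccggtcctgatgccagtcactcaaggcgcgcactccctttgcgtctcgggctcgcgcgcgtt

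The BMF stretch held 1 GC box, a motif found in 42.6% of 35116 promoter stretches of the same length, and 1 CCAAT box, found in 32.0%. Its GC content was 65.2% with 26 CpG dinucleotides, against medians of 58% and 11 over all stretches. The BCL2L1 stretch held 2 matches to TATAAA, found at least once in 10.7% of stretches, and none of the other motifs. Neither match lay close to the annotated start, and whether either acts as a TATA box was not tested. The GC content of the BCL2L1 stretch was 50%, with 17 CpG dinucleotides. The E-box CACGTG, the FOXO site GTAAACA, the STAT site TTCNNNGAA and the cAMP response element TGACGTCA were searched as well and had no match in either stretch. Among the 8 members with an entry, BCL2L11 held 1 FOXO site, found in 2.98% of stretches, and BAX held 4 E-boxes, found at least once in 6.34%. A match is a description of the letters in this window. The array gives no measurement of the promoters.

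BCL2L11 encodes BIM, a BH3-only protein that binds every pro-survival member and has several splice forms. Its 7 probe sets had the largest SD of any member, narrowly ahead of MCL1. The mean was 0.01 in the CD24 shRNA array and -0.01 in the control array, a difference of 0.01 ± 0.31 (SD, 7 probe sets). On the higher side lay 222343_at at 0.39, 208536_s_at at 0.23, 1558143_a_at at 0.20 and 1553088_a_at at 0.10. On the lower side lay 1555372_at at -0.41, 225606_at at -0.39 and 1553096_s_at at -0.05. The mean thus hides probe sets that differ by 0.81 between the extremes, and its side of 0 depends on the choice of probe sets: the median over them was 0.10, while the difference was -0.02 when _s_at and _x_at probe sets were left out and -0.03 without 208536_s_at, which was placed below a log2 value of 4. Whether the probe sets follow different BIM splice forms was not tested.

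BID and PMAIP1 hardly differed between the arrays. BID, which caspase 8 cleaves to link death receptors to mitochondria, lay at 0.07 ± 0.06 (SD, 3 probe sets), with 0.14, 0.05 and 0.04 on its probe sets, all above 0 and below the pooled SD. PMAIP1 encodes NOXA, which binds MCL1 preferentially and is induced by stress pathways. It had -0.11 on 204285_s_at and a tie between the arrays on 204286_s_at, a mean of -0.05 ± 0.08 (SD, 2 probe sets). Set against its partner, the MCL1 difference exceeded that of PMAIP1 by 0.51 on the log2 scale. This pair was picked after the values were seen, and no level of either transcript was measured.

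The effectors differed little and in opposite directions. BAX, which moves from the cytosol to mitochondria during apoptosis, had -0.04 in the CD24 shRNA array, against 0.04 in the control array, a difference of -0.09 ± 0.09 (SD, 2 probe sets). Both of its probe sets lay below 0, at -0.15 for 211833_s_at and -0.03 for 208478_s_at. BAK1 encodes BAK, which resides in the mitochondrial outer membrane, where MCL1 and BCL-xL bind it. Its probe set, 203728_at, had 0.08 in the CD24 shRNA array and -0.08 in the control array, a difference of 0.16. All 3 effector probe sets were smaller in size than the pooled SD, and 66.6% of all genes for BAX and 46.5% for BAK1 had differences as large in size.

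**Figure D2:**
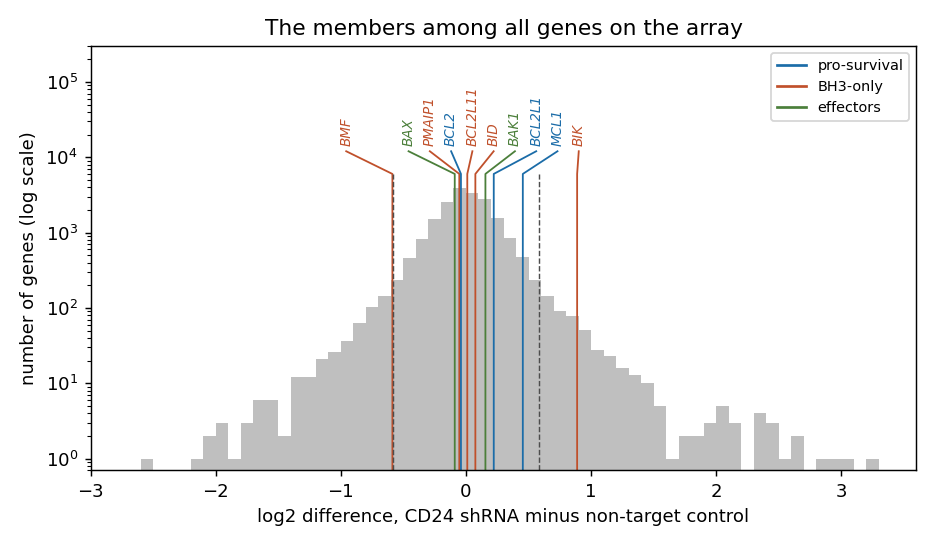
The histogram counts the 19775 genes by their log2 difference, CD24 shRNA minus control, on a log scale of numbers of genes. Coloured lines place the 10 members by role, and dashed lines mark 1.5-fold. BIK at 0.89 and BMF at -0.59 lie in the flanks, MCL1 at 0.45 inside them, and most members lie near 0.

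Grouped by role, the pro-survival genes had a median of 0.22, the BH3-only genes 0.01 and the effectors 0.03, with 0 for all genes. The BH3-only genes spanned the widest range, from -0.59 to 0.89. Counted by probe set, 9 of 14 pro-survival, 8 of 14 BH3-only and 1 of 3 effector probe sets lay above 0. For all genes 20045 of 41091 probe sets lay above 0 and 2274 were tied. Over all members 12 of 31 probe sets, or 38.7%, were larger in size than the pooled SD, against 31.1% of the probe sets of all genes. The counts of the members are over few genes, and probe sets of a gene share its transcripts.

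The remaining BCL-2 family genes measured gave a median of 0.02 over 13 genes, with 7 above and 6 below 0, where 49.4% of all genes lay above 0. BNIP3, a mitophagy receptor with a BH3-like motif, was the only one of the 13 past 1.5-fold, where 5.01% of all genes passed. BNIP3 was 2.16-fold lower (-1.11 ± 0.08, SD, 2 probe sets). Its relative BNIP3L lay at -0.47 ± 0.24 (SD, 2 probe sets). The pro-survival BCL2A1 had 0.57 on 1 probe set, which was placed below a log2 value of 4, and 0.65, past 1.5-fold, on the hybridisation control scaling. BOK, an effector-like member, averaged 0.41, but its probe sets lay at 0.82 and 0.

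Downstream of the mitochondria, none of 12 genes for the apoptosome, caspases and their substrates reached 1.5-fold in either direction (median -0.03). Of all genes 5.01% did, so a count of 0 in so short a list says little. The largest differences were in DFFB, the nuclease that cuts DNA in apoptosis, at -0.32 (1 probe set), in its inhibitor DFFA at -0.23 ± 0.44 (SD, 3 probe sets), in AIFM1, a mitochondrial flavoprotein, at -0.23, and in PARP1, a DNA repair enzyme that caspases cleave, at -0.18. None of 7 genes for the inhibitor of apoptosis proteins and their antagonists reached 1.5-fold, again beside 5.01% of all genes (median -0.01). DIABLO, which encodes the antagonist SMAC, lay at 0.36, and of the inhibitors BIRC7 lay at -0.25, BIRC2 at 0.20 and BIRC6 at 0.08.

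The death receptor list held 2 of 11 genes at least 1.5-fold lower, or 18.2%, where 2.38% of all genes passed, and none at least 1.5-fold higher (median -0.10). TNFSF10, the ligand TRAIL, was 1.73-fold lower (-0.79 ± 0.15, SD, 3 probe sets), with probe sets at -0.95, -0.74 and -0.67. TNFRSF10A, a receptor of TRAIL, was 1.57-fold lower (-0.65 ± 0.13, SD, 3 probe sets), with probe sets at -0.77, -0.68 and -0.51. TNFRSF1A, the main receptor of TNF, lay at -0.25. CFLAR, which encodes the caspase 8 inhibitor FLIP, lay at 0.24 ± 0.21 over its 14 probe sets (SD). Under the hybridisation control scaling, 1 gene of this list was at least 1.5-fold lower.

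The list of partners at mitochondria and the endoplasmic reticulum held 19 genes, most of them for proteins of the outer membrane or of mitochondrial fusion and fission, and others for proteins of the endoplasmic reticulum, the inner membrane or the matrix. PPIF was the only one of the 19 past 1.5-fold, where 5.01% of all genes passed in either direction. It encodes cyclophilin D, a matrix regulator of the permeability transition pore, and was 2.14-fold lower, with -1.10 on both of its probe sets. TOMM20, an import receptor, lay at -0.35 ± 0.07 (SD, 2 probe sets), and the mitofusins MFN1 and MFN2 at 0.35 ± 0.10 and 0.27 ± 0.22 (SD, 3 probe sets each). The median of the list was 0.01. None of 13 regulators of BCL-2 family protein turnover or location reached 1.5-fold, beside the same 5.01% of all genes (median 0.09). Above 0 lay 10 of the 13, where 49.4% of all genes lay above 0. Beside DYNLL2, TRIM17 lay at 0.27, FBXW7, an F-box protein that marks MCL1 for degradation, at 0.18 ± 0.37 (SD, 4 probe sets), and GSK3A, a kinase whose family phosphorylates MCL1, at 0.15 ± 0.26 (SD, 2 probe sets).

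The transcription factors that are known to control BCL-2 family genes had a median of -0.00038. None of the 18 reached 1.5-fold, where 5.01% of all genes did. ATF3, a stress-induced factor, lay at 0.50 ± 0.46 (SD, 3 probe sets). The lowest of its probe sets was placed below a log2 value of 4, and without it ATF3 lay at 0.72, past 1.5-fold. STAT3, which can activate MCL1 and BCL2L1, lay at 0.33 ± 0.24 (SD, 4 probe sets), RELA, the p65 subunit of NF-kB, at -0.46 ± 0.35 (SD, 2 probe sets), and ATF4, a factor of the integrated stress response, at -0.35. Of 16 genes of growth arrest and the DNA damage response, 2 were at least 1.5-fold higher, or 12.5%, where 2.63% of all genes passed, and none was at least 1.5-fold lower (median -0.06). GADD45A, a growth arrest gene, lay just past 2-fold with a difference of 1.00, and TIGAR, which restrains glycolysis, was 1.75-fold higher, each on 1 probe set. CDKN1A, the cell-cycle inhibitor p21, lay at -0.57 and TP53I3, an oxidoreductase, at 0.48. The named genes of this list thus lay on both sides of 0.

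**Figure D3:**
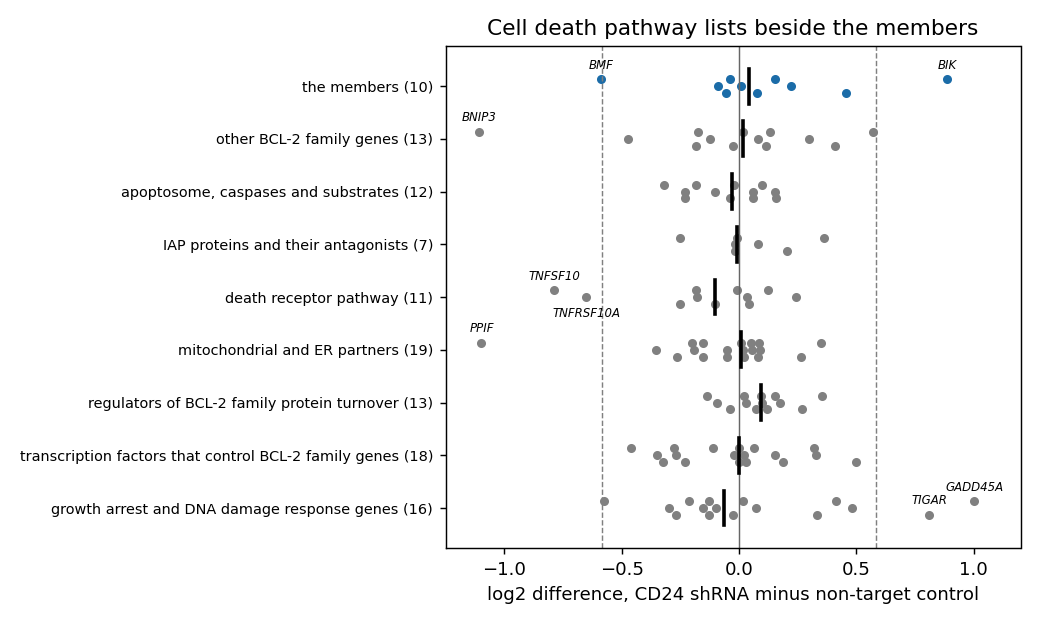
Each point is 1 gene, placed by its log2 difference, CD24 shRNA minus control, in rows for the 10 members and for 8 other lists. The lists hold other family genes, cell death genes, partners, regulators, and genes of growth arrest and the DNA damage response. The number of genes measured is in brackets. Black bars are medians, dashed lines mark 1.5-fold, and genes past it are named. The medians lie between -0.10 and 0.09, and BNIP3, PPIF, TNFSF10, TNFRSF10A, TIGAR and GADD45A lie outside the dashed lines.

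Over the 8 lists together, 109 genes were measured, of which 2 passed 1.5-fold on the higher side and 4 on the lower side, or 1.83% and 3.67%, against 2.63% and 2.38% of all genes. The median was 0, with 54 genes above 0 and 54 below, where 49.4% of all genes lay above 0.

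**Figure D4:**
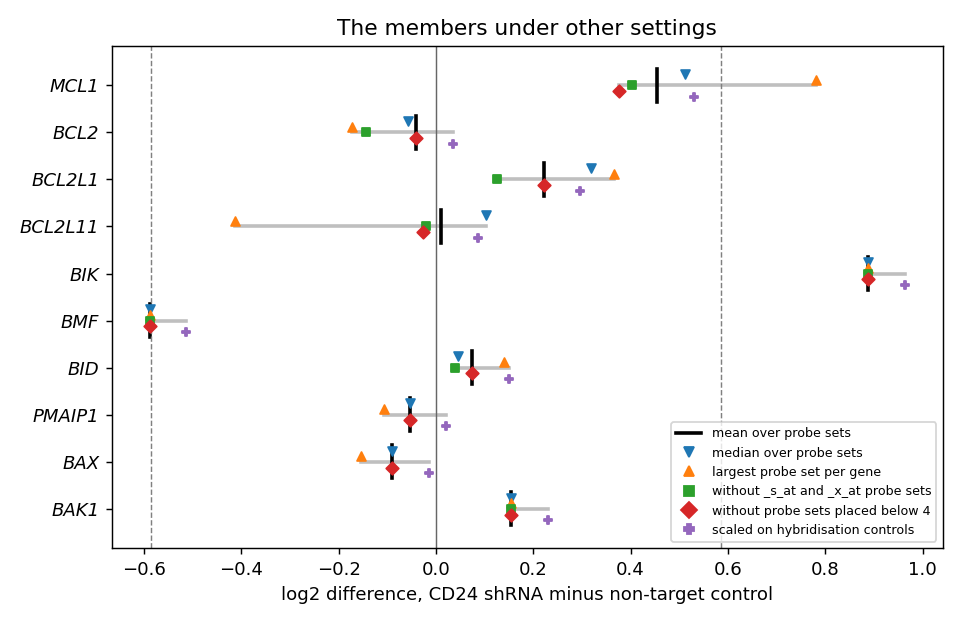
Each row shows 1 member: the black bar is the log2 difference, CD24 shRNA minus control, as reported, symbols are the values under other settings, and the grey line spans their range. Dashed lines mark 1.5-fold. MCL1, BCL2L1 and BID stay above 0 under every setting drawn, while BCL2, BCL2L11 and PMAIP1 lie on both sides. BIK, BMF and BAK1 have 1 probe set each, so only the hybridisation control scaling can move them.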

How the data were processed

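Total RNA of 2 Huh7 cultures was measured on 1 Affymetrix array each. Per the submitters' processing notes, RMA (background correction, quantile normalisation and probe summary) gave the deposited log2 values. Which software ran it, and what followed, is not given in the sources used here. The 2 values of every probe set sum to 0 within 1e-06, so the table was centred per probe set and holds no levels. The base of the logarithm is taken from RMA.

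Probe sets were named through GEO's platform annotation. The analysis used 41091 of 54675, those that named 1 gene. A further 1801 named several genes and 11721 had no name here, and 62 control probe sets were left out. The Entrez IDs of 41037 were found in the gene table of GRCh38.p14, which changed 0 symbols. Differences, CD24 shRNA minus control, were averaged over the probe sets of a gene. With 1 array per group no test, p-value or SD between cultures was computed, and genes were counted past 1.5-fold and 2-fold. The number of arrays limits the precision. A dim probe set, below a log2 value of 4 in the dimmer array, was recognised where the digits carry a binary step finer than single precision allows from 4 upward. This placed 10453 of the 41091 probe sets, including 116 of 208 for genes of olfactory receptors, taste receptors, defensins and keratin-associated proteins.

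All members and CD24 are named, with up to 4 genes of each list that had the largest difference. DYNLL2 and PMAIP1 were set beside BMF and MCL1 in addition. Some genes of the pathway are not reported here. Members and lists were chosen with earlier results of these data known. In a simulation of this comparison over 19775 genes, 97 of 100 genes at a log2 size of 1.5 and all 100 at a size of 3 passed 2-fold, and 2 unchanged genes did. The simulation drew its noise from the pooled SD between probe sets and holds no spread between cultures. It checks the counting at 2-fold only, and says nothing about the members or the 1.5-fold threshold. Values were computed with Python 3.11.15 and pandas 2.3.3.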

Additional observations from a re-analysis of the deposited data

How the results depend on the processing

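The members were recomputed with the median over probe sets, the largest probe set per gene, without _s_at and _x_at probe sets (which left 8 members, without PMAIP1 and BAX), without probe sets placed below 4, centred on the median difference, scaled on hybridisation controls, and with probe sets that name several genes. With the largest probe set per gene, MCL1 lay at 0.78, BCL2 at -0.17, BCL2L11 at -0.41, BID at 0.14, and 303 genes of the array passed 2-fold on the higher side and 209 on the lower, against 125 and 96 as reported. BID lay at 0.15 on the hybridisation control scaling, where 163 genes passed 2-fold on the higher side and 78 on the lower, so that 67.6% of these genes were higher, against 56.6% as reported. At 1.5-fold the share was 67.3% on that scaling, against 52.6% as reported. At 1.5-fold, 1 member was higher and 1 lower, with 521 and 470 genes of the array, and at 3-fold 32 and 17. BIK lay at 0.96 and BMF at -0.51 on the hybridisation control scaling, the only setting that can move members with 1 probe set. MCL1 ranged from 0.38 to 0.78, and BCL2L1 from 0.13 to 0.37. PMAIP1 turned to 0.02 under the hybridisation control scaling. Over these settings the medians of the 8 pathway lists ran from -0.25 to 0.27 and changed sign in 13 of 56 recomputations. Of 112 recomputed counts past 1.5-fold, 8 differed by over 1.5 times from those reported, and none exceeded 3. Centring on the median difference could change nothing, since that median was 0. No probe set that names several genes named a member. The totals include these 2 settings, but none of the 13 or the 8 shifts came from them. The cause of these shifts was not tested beyond their construction. No paired analysis was possible because each group has 1 array, and for the same reason no replicate could be left out. Without levels, a dim transcript and an absent one cannot be told apart, and a difference in a probe set near the background can be understated.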
